A study of Mus musculus with 19 samples.

Results

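The 5 genes described here are the axon guidance receptors Robo1 and Robo2 and the secreted ligands Slit1, Slit2 and Slit3, out of 35596 genes counted in whole vomeronasal organs (VNOs) of female mice at postnatal day 21. They were chosen by name, and all 5 passed the filter on low counts in every comparison. The study asked how the loss of Smad4, the shared mediator of TGFβ and BMP signaling, changes transcription in vomeronasal sensory neurons (VSNs). The AP-2εCre line had 3 libraries of AP-2εCre+/-/Smad4 flox/flox conditional knockouts (cKO), 3 of AP-2εCre+/- heterozygotes, whose labels name no floxed Smad4, and 3 of Smad4 flox/flox mice without Cre. The OMPCre line had the same 3 genotypes with OMPCre, in 3 libraries each. AP-2εCre is active in immature basal VSNs, and OMPCre in mature apical and basal VSNs. Both the heterozygotes and the cKOs carry 1 Cre allele at the Tfap2e or the Omp gene, and the Smad4 flox/flox mice are called wild type in the labels. The title of 1 more AP-2εCre library calls it a heterozygote while its genotype entry reads cKO, and it was placed in no group.

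Slits are large secreted proteins that bind the immunoglobulin domains of Robo receptors on growth cones, and the binding usually repels the axon. In the vomeronasal system Robo2 is known from basal VSNs, whose axons end in the posterior accessory olfactory bulb, and Slits of the anterior bulb are known to keep these axons out. The accessory bulb was not sampled, so the Slit mRNA measured here came from the VNO itself.

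Each library held between 43385516 and 134042284 estimated counts, and the deepest library was AP-2εCre cKO replicate 2. The labels name VSNs as the cell type, but the libraries hold the whole organ. The 5 fibroblast markers together ranged from 9462.8 to 25019.5 CPM (counts per 1000000 counts of a library), against 282.8 to 597.6 CPM for the 5 basal VSN markers. Smad4 itself overlapped in the AP-2εCre line, at 33.8 to 66.5 CPM in the cKO libraries and 39.6 to 81.0 CPM in the controls. In the OMPCre line it was lower, at 54.4 to 62.5 CPM in the cKO libraries and 64.8 to 83.9 CPM in the controls. In bulk tissue, fewer cells of a type and less RNA per cell cannot be told apart.

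Robo1 (ENSMUSG00000022883.11) lies at chr16:72308306-73046095 on the plus strand of GRCm38, and Robo2 (ENSMUSG00000052516.19) at chr16:73891839-74411825 on the minus strand. Slit1 (ENSMUSG00000025020.11) lies at chr19:41600257-41743665 on the minus strand. Slit2 (ENSMUSG00000031558.15) is at chr5:47983138-48307733 and Slit3 (ENSMUSG00000056427.10) at chr11:35121224-35708507, both on the plus strand. Introns of Slit2 and Slit3 hold Mir218-1 and Mir218-2 on the same strand, and these microRNA genes were not analysed here.

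The genes differ in how their estimated counts spread over annotated transcripts, and the exons that separate the most abundant transcripts are shown to make those differences readable. Robo1-201 and Robo1-206 share 28 exons and differ only in the first. The coding part of each first exon is in capitals, followed in lower case by the first 12 bases of the shared second exon. That of Robo1-201 (chr16:72664140-72664194) opens with the annotated start codon, while Robo1-206 (chr16:72563700-72563783) is annotated with an incomplete 5′ end:
Robo1-206 first exon: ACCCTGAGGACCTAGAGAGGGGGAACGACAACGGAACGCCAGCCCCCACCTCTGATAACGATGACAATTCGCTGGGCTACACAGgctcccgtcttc
Robo1-201 first coding stretch: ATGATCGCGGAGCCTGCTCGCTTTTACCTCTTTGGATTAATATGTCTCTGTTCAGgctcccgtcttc

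Slit2 and Robo2 transcripts differ in short coding exons, shown in capitals with 12 bases of the neighbouring exons in lower case. In Slit2 the 12-base exon (chr5:48191003-48191014) is coding in Slit2-202, Slit2-216 and Slit2-217, and the 24-base exon (chr5:48220967-48220990) is coding in Slit2-202 and Slit2-217. In Robo2, on the minus strand, the 12-base exon (chr16:74008775-74008786) is coding in Robo2-210 and Robo2-211, and the 126-base exon (chr16:73933046-73933171) is coding in Robo2-203 and Robo2-210. The length of each is a multiple of 3, so that leaving it out keeps the reading frame:
Slit2 12-base exon: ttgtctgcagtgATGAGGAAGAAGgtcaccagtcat
Slit2 24-base exon: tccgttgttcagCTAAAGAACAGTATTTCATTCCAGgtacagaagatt
Robo2 12-base exon: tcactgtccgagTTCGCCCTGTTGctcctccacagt
Robo2 126-base exon: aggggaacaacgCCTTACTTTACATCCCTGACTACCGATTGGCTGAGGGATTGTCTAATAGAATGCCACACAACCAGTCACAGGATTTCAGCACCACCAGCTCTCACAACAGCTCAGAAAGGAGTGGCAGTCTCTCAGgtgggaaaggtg

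All 5 genes were expressed in every library of the VNO. Per length, in TPM (transcripts per 1000000 transcripts, a unit scaled by length) over the 12 control libraries, Slit2 had the highest level at 41.0 ± 11.3 (SD), followed by Robo2 at 29.9 ± 6.68. Robo1 followed at 15.3 ± 3.86, Slit3 at 10.3 ± 2.18 and Slit1 at 4.23 ± 1.71. Each gene exceeded the next in at least 11 of the 12 libraries (exact sign-flip test over libraries, two-sided, largest adjusted p = 0.00098 over the 4 neighbouring pairs).

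The place of Slit2 in this order depended on short annotated fragments, which hold few counts but much of the TPM. Transcripts of at least 4000 bases held a median of 21.7% of Slit2 TPM and 38.7% of Robo2 TPM, against 71.2% of Robo1 TPM and all of the TPM of Slit1 and Slit3. Over these long transcripts alone, Robo2 was at 12.3 ± 3.39 TPM, Robo1 at 11.1 ± 2.35, Slit3 at 9.87 ± 2.25, Slit2 at 8.83 ± 2.36 and Slit1 at 3.70 ± 1.27. The neighbours Robo2 and Robo1 then did not differ beyond their spread (adjusted p = 0.052, exact sign-flip test), and Slit2 was below Robo2 in 11 of 12 libraries. As a TMM-normalized count per kilobase, Slit2 was also below Robo2, at 15.4 ± 2.30 against 19.1 ± 2.90 (adjusted p = 0.014). Slit1 was the lowest of the 5 genes on all 3 scales.

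**Figure D1:**
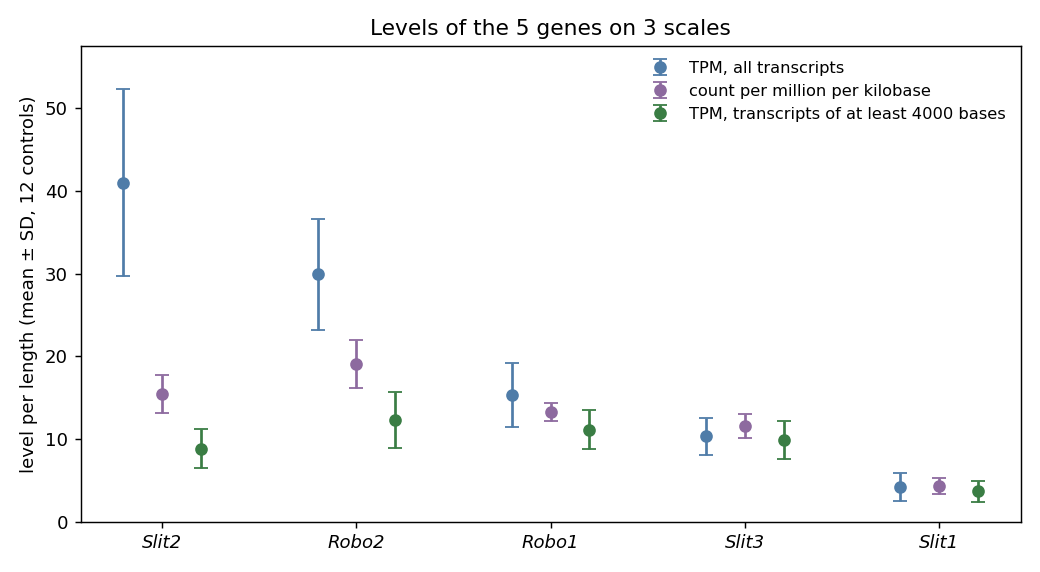
Level of each gene per length (y axis; TPM, or CPM per kilobase, as the legend gives) as the mean and SD of the 12 control libraries, for all transcripts, for counts per kilobase, and for transcripts of at least 4000 bases. Slit2 is highest at 41.0 TPM over all transcripts and below Robo2 on the other scales, and Slit1 is lowest throughout.

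In the AP-2εCre line the mean level of all 5 genes was higher in the cKO than in the controls, by 1.11-fold to 1.23-fold, and none passed the adjusted threshold of 0.05. By edgeR's quasi-likelihood test 7 of the 18495 genes tested, or 0.0378%, were called in this comparison, and by DESeq2 309, or 1.67%, again without any of the 5. At an unadjusted p under 0.05, 2 of the 5 genes, Slit2 and Slit3, were higher, where 4.18% of all genes were. In CPM, for none of the 5 did the 3 cKO values stand clear of the 6 control values, as they did for 5.06% of all genes.

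The receptor Robo2, the main Slit receptor of basal VSN axons, was at 131.2, 110.6 and 138.1 CPM in the AP-2εCre cKO libraries. The Smad4 flox/flox controls had 134.4, 120.3 and 115.4 CPM, and the heterozygotes 71.6, 98.5 and 92.7 CPM. The cKO libraries thus overlapped with the flox controls and lay above all 3 heterozygotes. Against both controls together the log2 fold change was 0.27 ± 0.17 (SE; adjusted p = 0.657, edgeR), and it was 0.03 against the flox controls alone and 0.54 against the heterozygotes alone.

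Robo1, the related receptor, was at 101.2, 96.1 and 106.7 CPM in the AP-2εCre cKO libraries. Control values were 103.4, 96.3 and 88.1 CPM in flox mice and 80.7, 97.7 and 83.5 CPM in heterozygotes. The ranges overlapped, and the log2 fold change was 0.15 ± 0.09 (SE; adjusted p = 0.629, edgeR). It was 0.36 with counts rebuilt from length-scaled TPM and 0.08 against the flox controls alone, neither of which was called.

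Slit3 was the ligand with the tightest AP-2εCre cKO values, at 76.0, 76.7 and 74.0 CPM. The flox controls had 66.9, 74.3 and 50.2 CPM, and the heterozygotes 57.2, 56.9 and 62.8 CPM. Of the 3 cKO libraries 2 were above every control in CPM, and the third was just under the highest flox control. In TPM all 3 cKO libraries, at 13.0 to 18.2, were above the controls, at 8.32 to 11.3. The share of all genes so placed in TPM was not counted. The log2 fold change was 0.30 ± 0.11 (SE; p = 0.0204, adjusted p = 0.394, edgeR), and an exact permutation test gave p = 0.06, where the smallest p possible with 3 against 6 libraries is 0.012.

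Slit2 was at 160.7, 118.4 and 133.9 CPM in the AP-2εCre cKO libraries. Flox controls had 108.2, 122.2 and 113.5 CPM, and heterozygotes 126.3, 117.2 and 104.3 CPM. Again 2 cKO libraries lay above all 6 controls, and replicate 2 lay among them. The log2 fold change was 0.26 ± 0.10 (SE; p = 0.0282, adjusted p = 0.418, edgeR; exact permutation p = 0.048), and it fell to 0.13 without the highest cKO library, replicate 1.

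Slit1, the least abundant ligand, was at 24.3, 28.0 and 25.3 CPM in the AP-2εCre cKO libraries. The flox controls had 21.7, 18.2 and 20.6 CPM and the heterozygotes 17.1, 28.5 and 27.4 CPM. All cKO libraries were above the flox controls but overlapped with the heterozygotes, with a log2 fold change of 0.22 ± 0.16 (SE; adjusted p = 0.72, edgeR) against both together.

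**Figure D2:**
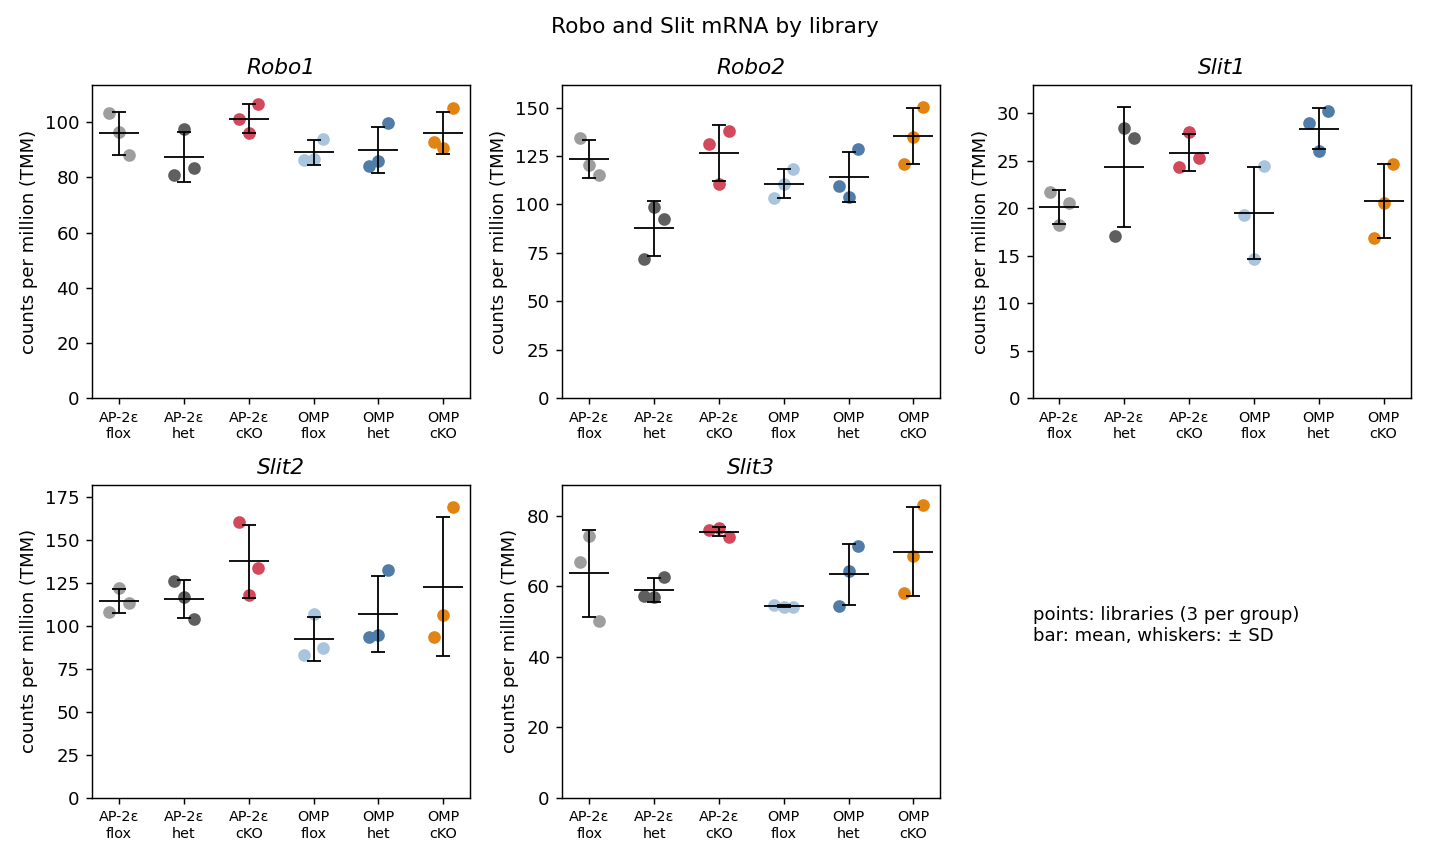
CPM with TMM normalization (y axis, from 0) of each gene in the 18 libraries, by group (x axis), with points for libraries, a bar for the mean and whiskers for the SD (n = 3). AP-2εCre heterozygotes are lowest for Robo2 at 71.6 to 98.5 CPM, and OMPCre cKO replicate 3 is highest for Slit2 at 169.2 CPM.

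In OMPCre animals Robo1, Robo2, Slit2 and Slit3 had a higher mean in the cKO and Slit1 a lower one. None of the 18623 genes tested was called by edgeR, 0.0%, and DESeq2 called 43, or 0.231%, without any of the 5. At an unadjusted p under 0.05 only Robo2 of the 5 genes was higher, where 2.06% of all genes were. Again none of the 5 had cKO values clear of all the control values, as 2.35% of all genes had.

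Robo2 was at 121.0, 134.6 and 150.1 CPM in the OMPCre cKO libraries. Flox controls had 103.5, 110.4 and 118.4 CPM, and heterozygotes 109.7, 104.0 and 128.6 CPM. In this line the cKO libraries were above all flox controls, and 2 of 3 were above every control. The log2 fold change was 0.27 ± 0.09 (SE; p = 0.016, adjusted p = 1.0 after rounding, edgeR; exact permutation p = 0.024), with a range of 0.19 to 0.33 when each library was left out in turn.

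Robo1 differed less between the OMPCre groups, with 92.7, 90.6 and 105.0 CPM in the cKO libraries. The flox controls had 86.4, 86.6 and 94.1 CPM and the heterozygotes 84.3, 85.8 and 99.7 CPM. The ranges overlapped (log2 fold change 0.10 ± 0.08 SE, exact permutation p = 0.2), and the sign turned to -0.10 when counts were rebuilt from length-scaled TPM.

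Slit2 reached its highest TMM-normalized CPM of the 18 libraries in the OMPCre cKO, where the libraries had 93.5, 106.2 and 169.2 CPM. In TPM it was highest in AP-2εCre cKO replicate 1, at 93.4 against 83.3 in OMPCre cKO replicate 3. The flox controls had 82.9, 107.2 and 87.4 CPM and the heterozygotes 93.5, 94.7 and 132.8 CPM. The difference rested on 1 library: the log2 fold change was 0.30 ± 0.20 (SE; exact permutation p = 0.29), and 0.00 without cKO replicate 3.

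Slit3 showed the same library on top, with 58.0, 68.6 and 83.0 CPM in the OMPCre cKO libraries. The flox controls were nearly equal at 54.7, 54.1 and 54.2 CPM, and the heterozygotes had 54.3, 64.4 and 71.5 CPM. The log2 fold change of 0.25 ± 0.13 (SE; exact permutation p = 0.11) fell to 0.11 without cKO replicate 3. The animals of both lines carry names of 2 forms, a letter or the line's name, with 2 and 1 animals of each genotype. Among OMPCre animals named by a letter, the means of cKO and control were 99.8 and 94.6 CPM for Slit2 and 63.3 and 56.9 CPM for Slit3. Among those named after the line, the single cKO library had 169.2 CPM of Slit2 against a control mean of 110.1 CPM, and 83.0 CPM of Slit3 against 62.8 CPM. In the AP-2εCre line the letter-named means were 126.1 and 118.5 CPM for Slit2 and 75.3 and 63.8 CPM for Slit3. The single AP-2εCre cKO named after the line, replicate 1, had 160.7 CPM of Slit2 against 108.9 CPM, and 76.0 CPM of Slit3 against 56.5 CPM.

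Slit1 was at 16.9, 20.6 and 24.7 CPM in the OMPCre cKO libraries. It was at 19.3, 14.7 and 24.4 CPM in the flox controls and higher, at 29.0, 26.0 and 30.2 CPM, in the heterozygotes. The cKO libraries matched the range of the flox controls, so that the log2 fold change of -0.21 ± 0.22 (SE; exact permutation p = 0.51) against both controls became 0.08 against the flox controls alone.

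Averaged over both lines, Robo2, Slit2 and Slit3 each had a log2 fold change of 0.28, and none passed the threshold. By edgeR the SE was 0.08 (adjusted p = 0.236) for Robo2, 0.12 (adjusted p = 0.496) for Slit2 and 0.09 (adjusted p = 0.301) for Slit3. The mean for Slit2 was 0.13 without OMPCre cKO replicate 3. Robo1 followed at 0.13 ± 0.06 (SE; adjusted p = 0.538) and Slit1 at 0.02 ± 0.12 (SE; adjusted p = 0.997). Robo2, Slit2 and Slit3 had an unadjusted p under 0.05 and a higher level, as 4.83% of all genes had, and 40 of 19465 genes, 0.205%, were called. By DESeq2 264 genes, 1.36%, were called, and Robo2 was the nearest of the 5 at an adjusted p of 0.0628.

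The interaction of line and genotype, the AP-2εCre cKO effect minus that in OMPCre, was called for none of the 5 genes by edgeR, and for 0.00514% of all genes. It was 0.41 ± 0.24 (SE; adjusted p = 1.0 after rounding) on the log2 scale for Slit1, which was above its controls on average in the AP-2εCre line and below them in the OMPCre line. For the other 4 genes it was between -0.05 and 0.05, with SEs of 0.12 to 0.24.

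**Figure D3:**
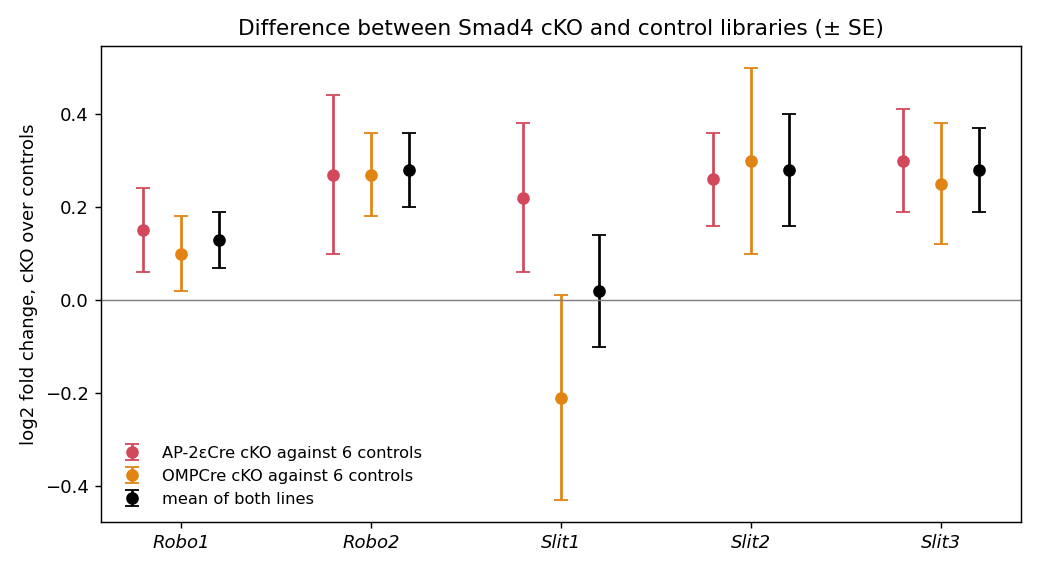
Log2 fold change of cKO over control libraries (y axis) for each gene (x axis), with SE, in the AP-2εCre line, the OMPCre line and their mean. Robo2, Slit2 and Slit3 lie between 0.25 and 0.30 in both lines and at 0.28 in the mean, and Slit1 has opposite signs at 0.22 and -0.21.

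Among the markers of VSN types, the sum of those of apical neurons was higher in the cKO of both lines. The 5 apical VSN markers (Gnai2, Meis2, Nrp2, Kirrel2 and Pde4a), all above 1 CPM in every library, summed to 1137.6 to 1176.7 CPM in the AP-2εCre cKO libraries and 907.2 to 1076.5 CPM in the controls. In the OMPCre line the same sum was 1073.1 to 1186.0 CPM in the cKO libraries and 931.8 to 1076.2 CPM in the controls (exact permutation p = 0.024 in each line, unadjusted). Single members did not all separate. Meis2 was at 178.3 to 201.0 CPM in the AP-2εCre cKO libraries and 175.6 to 199.2 CPM in the controls. Gnai2 and Nrp2 were clear of the controls there. In the OMPCre line Gnai2 overlapped, at 367.1 to 444.1 against 342.3 to 378.0 CPM. Nrp2 did as well, at 314.4 to 413.8 against 278.6 to 379.6 CPM, while Meis2 was clear. The 5 basal VSN markers overlapped in both lines, at 372.0 to 480.1 CPM against 282.8 to 592.7 CPM in the AP-2εCre line and 474.2 to 553.8 CPM against 435.4 to 597.6 CPM in the OMPCre line. The AP-2εCre cKO libraries were all below the flox controls, at 521.1 to 592.7 CPM. They overlapped with the heterozygotes, at 282.8 to 471.5 CPM. In the AP-2εCre line the 4 immune markers were also higher, at 174.6 to 185.7 CPM in the cKO libraries and 138.5 to 162.5 CPM in the controls, and the 4 precursor markers at 121.2 to 139.1 CPM against 60.2 to 117.7 CPM. In OMPCre animals the precursor markers were at 53.4 to 87.4 CPM in the cKO libraries and 74.5 to 123.1 CPM in the controls (exact permutation p = 0.11). Immature neuron markers were at 590.2 to 674.3 CPM in the OMPCre cKO libraries and 502.0 to 591.9 CPM in the controls (exact permutation p = 0.024), and at 520.1 to 761.9 against 446.5 to 621.8 CPM in the AP-2εCre line (exact permutation p = 0.095). Glia markers were lower in the OMPCre cKO, at 124.1 to 141.3 against 137.4 to 176.0 CPM (exact permutation p = 0.048). The AP-2εCre fibroblast markers overlapped, at 19929.3 to 25019.5 CPM against 10281.2 to 23625.4 CPM. The part of these cell types in the levels of the 5 genes was not tested.

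The heterozygotes, with 1 Cre allele, and the Smad4 flox/flox mice, without Cre, served together as controls. In the AP-2εCre line Robo2 was lower in all 3 heterozygotes, at 71.6 to 98.5 CPM, than in the 3 flox controls, at 115.4 to 134.4 CPM. The log2 fold change was -0.49 ± 0.14 (SE; adjusted p = 0.676 by edgeR and 0.0859 by DESeq2). Such a separation was seen in 5.02% of all genes, a p under 0.05 with a lower level in 2.81%, and a call by edgeR in 0.0487%. Markers of basal VSNs were lower in the same libraries: Gnao1, the basal G protein subunit, was at 171.0 ± 31.1 CPM in the heterozygotes and 223.3 ± 19.6 CPM in the flox controls (SD, n = 3). Kirrel3, an adhesion molecule of basal VSNs, was at 51.1 ± 14.6 against 75.2 ± 5.72 CPM. Summed, the 5 basal markers had 282.8, 471.5 and 471.2 CPM in the heterozygotes and 592.7, 521.1 and 555.9 CPM in the flox controls. Heterozygote replicate 1, the lowest of the line for Robo2 at 71.6 CPM, was thus also the lowest for the basal markers, and for the mature VSN markers at 343.1 CPM against 503.0 to 656.9 CPM in the other libraries of the line. Without it the log2 fold change of Robo2 was -0.37. The part of these markers in the difference of Robo2 was not tested.

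Slit1 separated the OMPCre controls, at 26.0 to 30.2 CPM in the heterozygotes and 14.7 to 24.4 CPM in the flox controls. The log2 fold change was 0.53 ± 0.19 (SE; adjusted p = 0.791, edgeR). Heterozygotes lay above all flox controls in 6.48% of genes, 2.51% of genes had a p under 0.05 and a higher level, and 0.0752% were called. The 4 markers of main olfactory neurons, all above 1 CPM in these libraries, separated the same groups, at 201.3 to 245.9 CPM in the heterozygotes, 102.2 to 136.8 CPM in the flox controls and 104.9 to 145.2 CPM in the cKO libraries. Their part in the difference of Slit1 was not tested. Robo2 showed no such gap in this line, at 104.0 to 128.6 CPM in the heterozygotes and 103.5 to 118.4 CPM in the flox controls. With 3 against 3 libraries the exact permutation test cannot go below 0.1, the value it gave for both Robo2 in the AP-2εCre line and Slit1 here.

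Between the controls of the lines none of the 5 genes was called by edgeR, where 0.2% of all genes were. Slit2 had the largest difference of the 5, at 115.3 ± 8.34 CPM in the AP-2εCre controls and 99.8 ± 18.2 CPM in the OMPCre controls (SD, n = 6; log2 fold change 0.21 ± 0.14 SE, exact permutation p = 0.069).

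At the level of transcripts, 34 transcripts of the 5 genes were tested in the AP-2εCre line and 35 in the OMPCre line, and none was called by edgeR or DESeq2. Among all transcripts edgeR called 0.0% and 0.00337% in the 2 lines, and DESeq2 1.08% and 0.485%. At an unadjusted p under 0.05 by edgeR there were 3 of 34 and 1 of 35, where 4.84% and 2.53% of all transcripts were.

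Robo1-201 and Robo1-206, the pair with the alternative first exons printed above, were compared by their estimated counts, which rest on the annotated models and so on the incomplete 5′ end of Robo1-206. Of the estimated counts of Robo1-201 and Robo1-206 together, Robo1-201 took 26.9%, 28.1% and 28.7% in the AP-2εCre flox controls, 26.6%, 30.1% and 29.2% in the heterozygotes and 27.5%, 33.8% and 36.3% in the cKO libraries. In the OMPCre line it took 27.1%, 30.6% and 29.1% in the flox controls, 37.5%, 42.0% and 31.5% in the heterozygotes and 26.8%, 18.1% and 28.2% in the cKO libraries. The share was thus 4.26 percentage points higher in the AP-2εCre cKO and 8.57 points lower in the OMPCre cKO, where the heterozygotes were the highest group. Neither passed an exact permutation test, at p = 0.06 and p = 0.071, and the difference between the lines was not tested. In TPM of the whole gene the mean share of Robo1-201 was lower in the cKO of both lines, with differences of -0.344 and -3.21 points. The AP-2εCre difference was 2.39 points without cKO replicate 3 and 6.78 without cKO replicate 1, and the OMPCre difference was -5.44 without cKO replicate 2. This share was chosen after the values were seen.

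**Figure D4:**
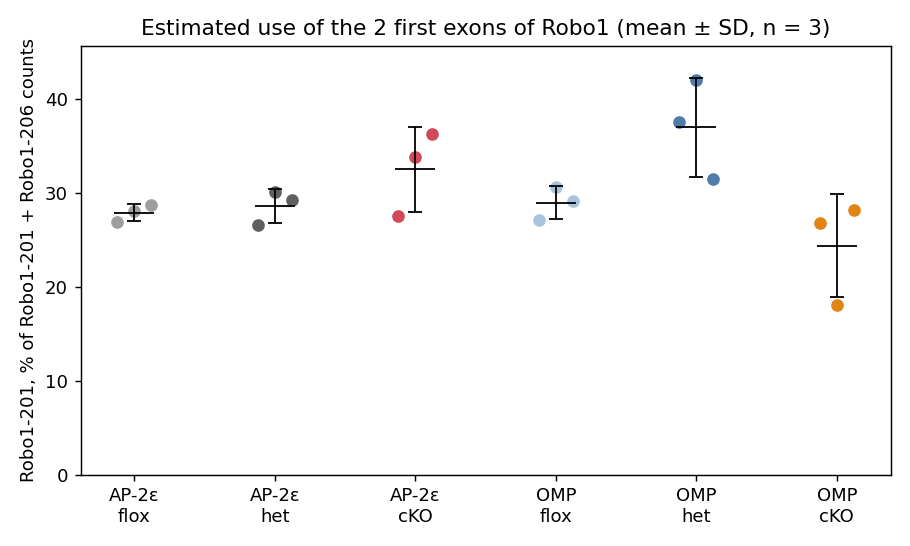
Share of Robo1-201 in the estimated counts of Robo1-201 and Robo1-206 (y axis, percent, from 0) in the 18 libraries by group (x axis), with the mean and SD (n = 3). The OMPCre heterozygotes are highest at 31.5% to 42.0%, and OMPCre cKO replicate 2 is lowest at 18.1%.

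As levels, Robo1-201 had a log2 fold change of 0.34 ± 0.14 (SE, edgeR) in the AP-2εCre cKO and -0.32 ± 0.19 in the OMPCre cKO. Robo1-206 had 0.05 ± 0.10 and 0.26 ± 0.12. Of the other main transcripts, Robo2-202 had 0.25 ± 0.22 and 0.25 ± 0.11, close to its gene. Slit3-201, which held nearly all counts of Slit3, had 0.29 ± 0.12 and 0.25 ± 0.14. The adjusted p of each was 1.0 after rounding, and leaving out 1 library moved the values of Robo1-201 between 0.20 and 0.44 and between -0.49 and -0.10.

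The share of 12 main transcripts in the TPM of their genes was compared between cKO and control libraries in each line, and none passed after adjustment over the 24 tests (lowest adjusted p = 0.9, exact permutation test). Slit3 came almost entirely from Slit3-201, with 98.0% ± 4.87 of its TPM in the AP-2εCre controls and 93.7% in the cKO, and means of 94.8% and 99.6% in the OMPCre line. For Slit1, Slit1-203 held 55.8% ± 13.5 and 51.2% in the AP-2εCre line and 61.7% ± 18.2 and 62.7% in the OMPCre line. For Robo2, Robo2-202 held 29.8% ± 1.08 and 32.2%, and 36.3% ± 2.96 and 37.1% (SD, n = 6 for the controls).

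The short exons of Slit2 and Robo2 were in use in all groups, as a share of the TPM of all transcripts that span them, for the 24-base exon of Slit2 and the 12-base exon of Robo2 with 1 noncoding transcript among the 3 that hold the exon. The 12-base exon of Slit2 had a share of 39.2% to 80.0% in the AP-2εCre controls and 41.5% to 79.7% in the cKO libraries, and 42.1% to 80.0% and 42.8% to 66.9% in the OMPCre line. The 24-base exon of Slit2 ranged from 12.7% to 72.5% over all 18 libraries. The 12-base exon of Robo2 had a share of 41.5% to 52.5% in the AP-2εCre controls and 29.1% to 61.1% in the cKO libraries, and 30.5% to 41.8% and 27.4% to 35.8% in the OMPCre line. The 126-base exon of Robo2 was the least used, at 3.33% to 13.4% over all 18 libraries. The groups overlapped for each of these exons, and single reads of such similar transcripts leave the shares of 1 library uncertain.

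Across the 18 libraries the receptors varied together. Robo1 and Robo2 had a Pearson r of 0.78 on log2 CPM (rho = 0.79, permutation p = 5e-05 and 0.00014, adjusted p = 0.0005 and 0.0014 over the 10 pairs of genes), 0.71 without the 2 libraries farthest from the median of Robo1, and 0.84 after the group means were removed. Slit2 and Slit3 had r = 0.70 (rho = 0.66, permutation p = 0.001 and 0.0033, adjusted p = 0.005 and 0.016), 0.54 without 2 libraries and 0.55 within groups. Slit1 did not pass with the other ligands, with r = 0.17 to Slit2 and 0.32 to Slit3 (permutation p = 0.49 and 0.19, adjusted p = 0.54 and 0.28), and 0.02 and 0.24 within groups. With the receptors Slit1 had r = 0.30 for Robo1 and 0.15 for Robo2 (rho = 0.20 and -0.05, permutation p of r = 0.22 and 0.55, adjusted p = 0.28 and 0.55), and 0.53 and 0.65 after the group means were removed, given with no test. Robo1 with Slit3, Robo1 with Slit2 and Robo2 with Slit3 also passed (r = 0.68, 0.59 and 0.54, rho = 0.61, 0.62 and 0.57, permutation p of r = 0.0024, 0.0095 and 0.017, adjusted p = 0.0079, 0.024 and 0.033).

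Set against the 13 marker lists, Slit3 followed the apical VSN and the fibroblast markers most closely. Its r was 0.89 with the summed apical markers (rho = 0.89, permutation p = 2e-05 and 3e-05, adjusted p = 0.0013 and 0.0019 over 65 relations), 0.86 without 2 libraries and 0.82 within groups. With the fibroblast markers, led by the collagen gene Col1a1, it was 0.75 (rho = 0.82, permutation p = 0.00011 and 9e-05, adjusted p = 0.0036 and 0.0029), 0.76 without 2 libraries and 0.77 within groups. Slit2 passed for r with the immune markers, at 0.67 (rho = 0.72, permutation p = 0.0022 and 0.0012, adjusted p = 0.028 and 0.016), and with the fibroblast markers for rho alone, at 0.70 (r = 0.59, permutation p = 0.0016 and 0.01, adjusted p = 0.017 and 0.073). Slit1 with the main olfactory neuron markers also passed for rho alone, at 0.69 (r = 0.61, permutation p = 0.002 and 0.0076, adjusted p = 0.019 and 0.073). So did Slit3 with the cartilage and bone markers, at 0.66 (r = 0.58, permutation p = 0.0035 and 0.0094, adjusted p = 0.028 and 0.073). Slit2 with the skeletal muscle markers did at -0.63 (r = -0.46, permutation p = 0.0058 and 0.058, adjusted p = 0.042 and 0.23).

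The receptors also varied with the apical markers, at r = 0.75 for Robo1 (rho = 0.74, permutation p = 0.0004 and 0.00077, adjusted p = 0.0087 and 0.013) and 0.70 for Robo2 (rho = 0.75, permutation p = 0.00061 and 0.00056, adjusted p = 0.0099 and 0.012). With the basal markers Robo2 had r = 0.61 (rho = 0.35, permutation p = 0.013 and 0.15, adjusted p = 0.077 and 0.41). Without the 2 libraries farthest from the median of Robo2 this r was 0.13. After the group means were removed it was 0.72, given with no test. For Robo2 with the apical markers the same values were 0.58 and 0.75. These 5 of 65 relations passed for r, and all share the same libraries and their composition.

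**Figure D5:**
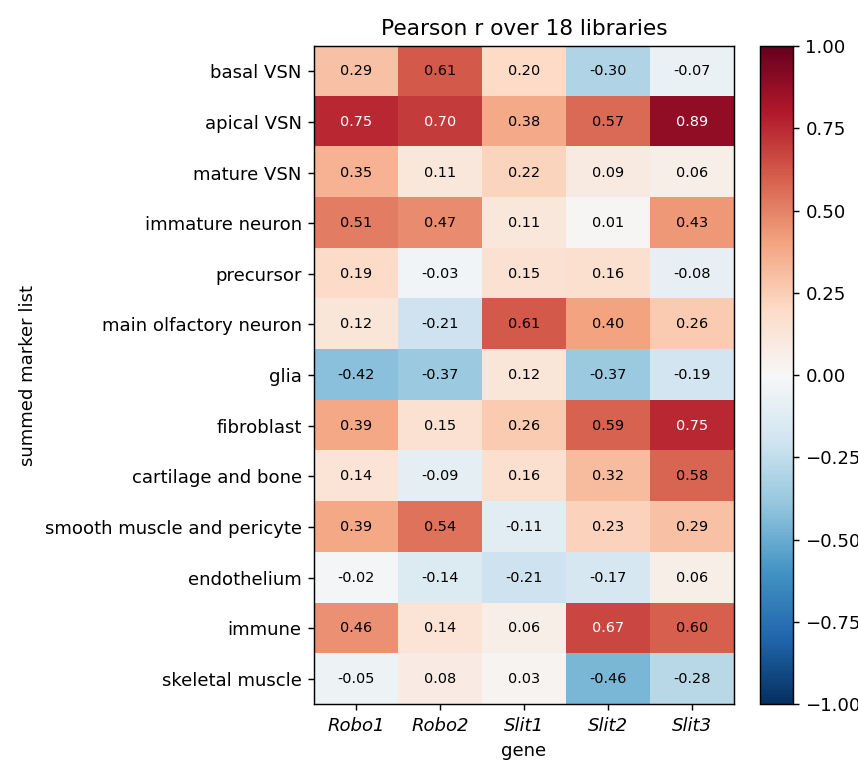
Pearson r over the 18 libraries between the log2 CPM of each gene (x axis) and the log2 summed CPM of each marker list (y axis), with color from -1 (blue) to 1 (red). Slit3 with the apical VSN markers is highest at 0.89, and Robo1 and Robo2 reach 0.75 and 0.70 with the same list.

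The genes most like each of the 5, by Pearson r of log2 CPM over the 18 libraries among 15838 genes with a mean of at least 1 CPM, are given as a description. For Robo2 they were Map1b (r = 0.92), a microtubule protein of growing axons, Adam19 (0.91) and Dcdc2a (0.90). For Robo1 they were Nav1 and Dennd4a (both 0.88) and Cdh2 (0.87), the neural cadherin. For Slit3 they were Igsf3 (0.91), the fibroblast growth factor receptor Fgfr1 (0.90) and the procollagen protease Adamts2 (0.90). For Slit2 they were Igsf10 and Glg1 (both 0.87) and Zfhx4 (0.86), and for Slit1 Nfrkb (0.88), Ip6k2 (0.85) and Tub (0.84). All of these remained at r of at least 0.77 without the 2 libraries farthest from the median of the member gene.

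Slit and Robo signaling needs heparan sulfate proteoglycans outside the cell and srGAP, Ena/VASP and Abl family proteins inside it, and 52 genes of such partners were tested. None was called in either line by edgeR or DESeq2. In the AP-2εCre line 8 of the 52 had an unadjusted p under 0.05 by edgeR, all higher in the cKO, beside 4.18% of all genes in that direction, and none was lower at that p, beside 6.04% of all genes. DESeq2 gave 7 higher and 2 lower (Ndfip1 and Nck1, named after their values were seen), beside 4.22% and 7.35% of all genes. The edgeR count depended on single libraries: it was 3 higher and 1 lower without cKO replicate 3, 4 higher without flox replicate 3, and up to 9 higher with others left out. That cKO replicate 3 was the highest of the line in summed endothelial markers, at 1449.4 CPM against 158.9 and 676.4 CPM in the other cKO libraries and 174.6 to 697.1 CPM in the controls, and in fibroblast markers, at 25019.5 CPM. Most of that endothelial sum was Pecam1, which ranged from 77.2 to 1366.9 CPM over the cKO libraries. The part of these markers in the count was not tested. The median log2 fold change of the list was 0.08 and that of all genes 0.00. In the OMPCre line 1 of the 52 was higher and none lower, beside 2.06% and 1.88% of all genes, with a median of 0.02. Without OMPCre cKO replicate 3 there were 0 higher and 1 lower and the median was -0.02, and 2 were higher without cKO replicate 1 or heterozygote replicate 3.

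Of the 21 extracellular partners and co-receptors, 6 were among these 8 in the AP-2εCre line, where 4.18% of all genes were higher at that p, and the median log2 fold change was 0.19, against 0.00 for all genes. Without cKO replicate 3 only 1 of the 21 had a p under 0.05, where 2.74% of all genes were higher at that p, without flox replicate 3 there were 3, and without cKO replicate 1 there were 4. Ntn1, the guidance cue netrin-1, was at 57.1 ± 4.38 CPM in the cKO and 44.4 ± 4.58 CPM in the controls (SD, n = 3 and 6; log2 fold change 0.37 ± 0.10 SE, adjusted p = 0.308, edgeR). The netrin receptor Unc5b was at 120.1 ± 4.22 against 96.3 ± 14.2 CPM (adjusted p = 0.391). The proteoglycans Sdc3 (syndecan-3; adjusted p = 0.403) and Gpc1 (glypican-1, a Slit-binding protein; adjusted p = 0.438), both with a log2 fold change of 0.34, followed. For Nell2, a ligand of Robo3, the log2 difference was 0.42 (adjusted p = 0.457). In the OMPCre line none of the 21 had a p under 0.05.

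Of the 25 intracellular partners, Cap1, a cyclase-associated actin regulator, was higher by 0.17 on the log2 scale (adjusted p = 0.403, edgeR) in the AP-2εCre line, and Srgap1 by 0.28 (adjusted p = 0.479). Srgap1, a GTPase-activating protein that binds the Robo tail, was at 122.1 ± 11.8 CPM in the AP-2εCre cKO and 100.8 ± 14.0 CPM in its controls. It was also the listed gene with a p under 0.05 in the OMPCre line, at 120.7 ± 14.4 against 99.6 ± 9.24 CPM (SD, n = 3 and 6; log2 fold change 0.28 ± 0.10 SE, adjusted p = 1.0 after rounding). None of the 6 genes of Robo trafficking had a p under 0.05 by edgeR in either line, while Ndfip1 was lower at that p by DESeq2 in the AP-2εCre line (log2 fold change -0.23 ± 0.11 SE, adjusted p = 0.405). By edgeR 1 of the 6 was lower at that p in 5 of the 9 fits of this line that left out 1 library, which were cKO replicates 1 and 2, flox replicate 1 and heterozygote replicates 2 and 3, where 5.43% to 6.88% of all genes were lower at that p. In the mean over both lines edgeR called none of the 52, with the lowest adjusted p at 0.271 for Srgap1. DESeq2 called 1 of the 52, Cap1, where it called 1.36% of all genes, at a log2 fold change of 0.13 ± 0.03 (SE; adjusted p = 0.0251, against 0.289 by edgeR). The other Robo receptors were scarce: Robo4, the endothelial receptor, ranged from 6.91 to 10.7 CPM and Robo3 from 0 to 0.565 CPM over the 18 libraries.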

How the data were processed

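The authors prepared stranded polyA+ libraries from VNOs, sequenced single reads and ran salmon 0.14.0 (GRCm38). They deposited, per transcript, an estimated count, not normalized for depth, and a TPM value, scaled to 1000000 per library. Annotated lengths equal the full exon sums of GENCODE vM21, which matched 116072 of 116248 transcripts. Estimated counts were summed per gene and rounded to whole numbers. Here CPM values use TMM library sizes.

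The main test was edgeR 4.0.16 (quasi-likelihood, TMM, filterByExpr, Benjamini-Hochberg over all genes; R 4.3.3), two-sided, with cKO against the 6 controls of its line. The methods of the study used DESeq2 1.22.2, and DESeq2 1.42.0 was an alternative. Scripts were tested on simulated data. The marker lists, the partner list and the 5 genes were chosen with earlier results of these data known. Partners were named when among the 6 lowest unadjusted p under 0.05 of a cKO comparison, and the 3 genes with the highest Pearson r were named for each of the 5. The labels call the libraries biological replicates. Replicate numbers were not used as pairs, since same-numbered libraries did not all have a correlation of deviations over 0.1. Depth limits counting error only slightly at these levels, and TPM keeps no depth.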

Additional observations from a re-analysis of the deposited data

Results flagged for a closer look

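The AP-2εCre library with conflicting labels was in no comparison. Scaled by its total alone, it had 38.0 CPM of Slit1 and 135.9 CPM of Slit2, above all 6 controls of the line on the same scale. The controls reached 28.6 CPM for Slit1 and 120.9 CPM for Slit2, and the cKO libraries ranged from 26.8 to 29.2 CPM and from 123.7 to 181.4 CPM. For the other 3 genes it lay below every cKO library: Robo1 was at 98.0 CPM against 100.4 to 114.2 CPM in the cKO, Robo2 at 85.1 against 115.7 to 148.0 CPM, and Slit3 at 67.6 against 78.4 to 85.8 CPM. Its Robo2 value was within the range of the heterozygotes, which reached 98.9 CPM, and below the flox controls at 114.4 to 122.9 CPM. No sample of the 6 controls of a line stood apart from the others for any of the 5 genes, and no gene moved one way in every cKO library of one line and the other way in every cKO library of the other.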

How the results depend on the processing

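None of the 5 genes was called under any alternative, which were DESeq2, its size factors in edgeR, upper-quartile scaling, 2 other filters, length-scaled TPM, each kind of control alone, the form of the animal name, a fit of all 18 libraries, the library with conflicting labels added, and each library left out in turn. No transcript of the 5 and no partner in either line was called either, but DESeq2 called 1 partner, Cap1, in the mean over both lines. The order of levels did change: Slit2 over Robo2 had a mean log2 ratio of 0.44 in TPM, -0.30 per kilobase and -0.48 over transcripts of at least 4000 bases, where the ratio of Robo2 over Robo1 was 0.13 and no longer passed. The last scale was added after seeing the data. Without any 1 control library the order kept its direction.

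Same-numbered libraries had correlations of deviations from -0.284 to 0.182 in the AP-2εCre line, 2 of 9 pairs over 0.1, and from -0.0011 to 0.472 in the OMPCre line, 7 of 9 pairs over 0.1. In the OMPCre line 8 of 9 libraries correlated best with one of their own number, a hint from the data and not the design, and 1 of 9 did in the AP-2εCre line. The replicate block left the Robo2 fold change at 0.26 in both lines (adjusted p = 0.734 and 0.552), called none of the 5 genes, and called 2 genes in all in the AP-2εCre cKO comparison and 0 in the OMPCre one. Robo1 in the OMPCre line turned to -0.10 with length-scaled TPM, and Slit1 to 0.08 with flox controls alone. With shares of estimated counts instead of TPM, 6 differences changed sign in percentage points: 3.93 for Robo1-201 in the AP-2εCre line, -0.713 and -0.622 for Robo2-202 in the AP-2εCre and OMPCre lines, 0.139 for Slit1-201 and 0.303 for Slit2-212 in the AP-2εCre line, and -2.61 for Slit1-203 in the OMPCre line. The cause was not tested.

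Leaving out 1 library changed the sign of small log2 differences. Between the lines' controls the ranges were -0.01 to 0.07 for Robo1, -0.17 to 0.02 for Slit1 and -0.00 to 0.13 for Slit3. Between heterozygotes and flox controls they were -0.05 to 0.09 for Slit2 and -0.26 to 0.01 for Slit3 in the AP-2εCre line, and -0.07 to 0.06 for Robo1 and -0.05 to 0.10 for Robo2 in the OMPCre line. For the difference between the lines' cKO effects they were -0.06 to 0.11 for Robo2, -0.21 to 0.25 for Slit2, where OMPCre cKO replicate 3 gave the upper end, and -0.07 to 0.19 for Slit3. The mean effect on Slit1 ranged from -0.05 to 0.08. In percentage points of TPM share, the AP-2εCre ranges were -2.89 to 1.52 for Robo1-201, -0.93 to 7.19 for Robo2-202, -5.21 to 3.71 for Slit1-201, -2.24 to 4.12 for Slit2-204, -0.336 to 4.05 for Slit2-206 and -1.77 to 0.958 for Slit2-212. The OMPCre ranges were -5.29 to 0.266 for Robo1-201, -0.31 to 4.44 for Robo2-201, -6.69 to 1.25 for Robo2-207, -4.53 to 5.78 for Slit1-203 and -2.31 to 1.20 for Slit2-206.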
